A study of Mus musculus with 4 samples.

Results

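The genes described here are 8 markers of the thalamus, *Prkcd*, *Zic1*, *Tcf7l2*, *Lef1*, *Gbx2*, *Rora*, *Lhx9* and *Prox1*, followed through the 4 RNA sequencing libraries of a hypothalamus study. They are 8 of the 16339 genes in the table, and all 8 had enough counts to be tested. They were selected on their read counts, since earlier results of these data showed them high in a single library, the one labelled WT WD replicate 2. Their excess in that library is therefore a description and not a finding, and no test of it is given.

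The study asked how loss of the taste receptor subunit *Tas1r3* changes the hypothalamus of mice on a Western diet (WD). Libraries came from the hypothalamus of male C57BL/6 mice, of which WT littermates formed the WT WD group and *Tas1r3*-/- mice, a conventional knockout in every cell, formed the KO WD group. Both groups were given a 60% fat diet with a 30% sucrose solution for 12 weeks from the age of 8 weeks, and no group on a normal diet was sequenced in the libraries used here. There were 2 libraries per group, where the methods state 3 mice per group, and the labels do not say whether each library is 1 mouse.

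The thalamus and the hypothalamus lie next to each other in the diencephalon, and their neurons are built by different sets of transcription factors. Thalamic relay neurons are excitatory cells that carry sensory and motor signals to the cortex. Their precursors depend on the homeobox gene *Gbx2*, and much of the thalamus and the adjoining habenula keeps the Wnt effector *Tcf7l2* into adult life. Markers of this kind are not exclusive to the thalamus, since *Prox1* also marks the dentate gyrus, *Rora* and *Zic1* the cerebellum, and *Lhx9* a class of hypothalamic neurons.

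Total estimated counts were between 5874782 and 6273772 per library, so depth was nearly equal. *Tas1r3*, the targeted gene, had 6.00 and 4.44 CPM (counts relative to the library total of named genes, scaled by edgeR's TMM method to a sum near 1e6) in WT WD and 1.12 and 1.23 in KO WD, which matched the genotype labels in each library. A marker of the labelled tissue was not alike across the libraries, and the cause was not tested. In WT WD replicate 2 the hypothalamic regulator *Nkx2-1* was listed at 0 CPM, against 28.7 to 41.5 CPM in the other 3 libraries, and the root mean square of its log2 difference from each of them over all genes was 0.719 to 0.759, against 0.372 to 0.417 among those 3. It is called here the library labelled WT WD replicate 2, and each contrast is given with and without it.

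All 8 genes lie on autosomes. On GRCm39 with GENCODE M39, *Gbx2* spans chr1:89855678-89858920, *Lhx9* chr1:138752924-138776341 and *Prox1* chr1:189850232-189904637, all on the minus strand. *Lef1* spans chr3:130903919-131018005 and *Rora* chr9:68561068-69295528, both on the plus strand, and *Zic1* chr9:91240111-91247863 on the minus strand. *Prkcd* spans chr14:30317307-30349238 on the minus strand and *Tcf7l2* chr19:55730188-55922091 on the plus strand.

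Since 2 of the 8 genes encode TCF/LEF factors, the windows of 250 bases before each annotated RefSeq start of the 8 genes were searched on both strands for CTTTG followed by AA, AT, TA or TT, words that these factors can bind. Of the 14 windows, 4 held at least 1 such word, against 14.8% of all 32851 windows, and none held AGGTCA, the half-site of ROR receptors, or TAATTA, a homeodomain word (14.0% and 4.84% of all windows). The windows of *Lhx9*, *Lef1* and *Tcf7l2* are given because they join the words to members of the group, and the fourth, of *Prkcd*, lies in annotated untranslated sequence. Capitals mark the words, on the strand of the gene.
Lhx9, chr1:138770183-138770432, minus strand: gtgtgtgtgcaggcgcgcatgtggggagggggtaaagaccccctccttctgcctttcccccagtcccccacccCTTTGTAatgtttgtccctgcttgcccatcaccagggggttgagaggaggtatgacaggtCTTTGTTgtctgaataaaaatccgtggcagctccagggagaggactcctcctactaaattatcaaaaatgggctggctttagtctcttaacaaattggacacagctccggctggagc
Lef1, chr3:130949693-130949942, plus strand: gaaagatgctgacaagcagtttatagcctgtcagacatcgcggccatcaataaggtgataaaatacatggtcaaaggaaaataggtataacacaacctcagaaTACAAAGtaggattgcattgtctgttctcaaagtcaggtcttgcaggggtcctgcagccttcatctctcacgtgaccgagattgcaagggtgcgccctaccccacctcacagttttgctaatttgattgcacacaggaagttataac
Tcf7l2, chr19:55883503-55883752, plus strand: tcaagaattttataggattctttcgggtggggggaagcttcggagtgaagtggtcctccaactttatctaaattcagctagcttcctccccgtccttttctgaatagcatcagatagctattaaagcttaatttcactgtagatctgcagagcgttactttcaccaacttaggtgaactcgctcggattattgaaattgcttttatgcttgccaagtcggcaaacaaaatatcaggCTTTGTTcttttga
The *Lhx9* window held 2 words on the strand of the gene, whose first bases lay 177 and 117 bases before the start. In *Lef1* the word was on the opposite strand, and in *Tcf7l2* it began 14 bases before the start. The windows of *Lhx9*, *Lef1*, *Tcf7l2* and *Prkcd* all lay inside the annotated span of their gene, so they precede internal starts. The sequences are from RefSeq promoters of GRCm38.p6 and each was found once, unchanged, on its GRCm39 chromosome. A match describes the letters only, and occupancy by a factor was not measured.

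*Prkcd*, which encodes a protein kinase C isoform abundant in thalamic relay neurons, had 10.6 CPM in WT WD replicate 1, 583 in the library labelled WT WD replicate 2, 15.7 in KO WD replicate 1 and 41.5 in KO WD replicate 2. It was thus 25.8-fold above the mean of the other 3 in that library. Among the 14344 genes tested, the log2 difference of *Prkcd* from the other 3 libraries ranked 7.

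The Wnt effectors were also high in that library. *Tcf7l2*, a DNA-binding partner of beta-catenin, had 10.8 CPM in WT WD replicate 1 and 359 in WT WD replicate 2, against 26.8 and 42.5 in KO WD. *Lef1*, its paralog, had 6.00 and 49.6 CPM in WT WD against 5.77 and 11.7 in KO WD. The library labelled WT WD replicate 2 was 13.4-fold above the mean of the other 3 for *Tcf7l2* and 6.34-fold for *Lef1*, and in *Lef1* alone of the 8 genes KO WD replicate 1, not WT WD replicate 1, was lowest.

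Among the homeobox genes the spread was wider. *Gbx2*, needed for thalamic neurons to form and to send axons to the cortex, had 0.343 and 78.7 CPM in WT WD against 3.53 and 6.83 in KO WD. *Lhx9*, a LIM homeobox gene of the early thalamus, had 3.09 and 94.0 CPM in WT WD and 5.93 and 9.28 in KO WD. *Prox1*, a divergent homeobox gene, had 29.8 and 101 CPM in WT WD and 34.6 and 38.2 in KO WD. In each of the 3 genes the library labelled WT WD replicate 2 lay above all others, by 22.1-fold, 15.4-fold and 2.95-fold over the mean of the other 3. *Gbx2* was close to the detection floor in WT WD replicate 1, with 2 estimated counts against 479 in WT WD replicate 2, so the size of this ratio is uncertain.

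The zinc finger factor *Zic1* and the nuclear receptor *Rora* completed the group. *Zic1* had 46.5 and 465 CPM in WT WD and 56.7 and 71.8 in KO WD, and *Rora* had 34.8 and 246 CPM in WT WD and 44.9 and 72.8 in KO WD. The library labelled WT WD replicate 2 was 7.97-fold above the mean of the other 3 for *Zic1* and 4.83-fold for *Rora*.

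**Figure D1:**
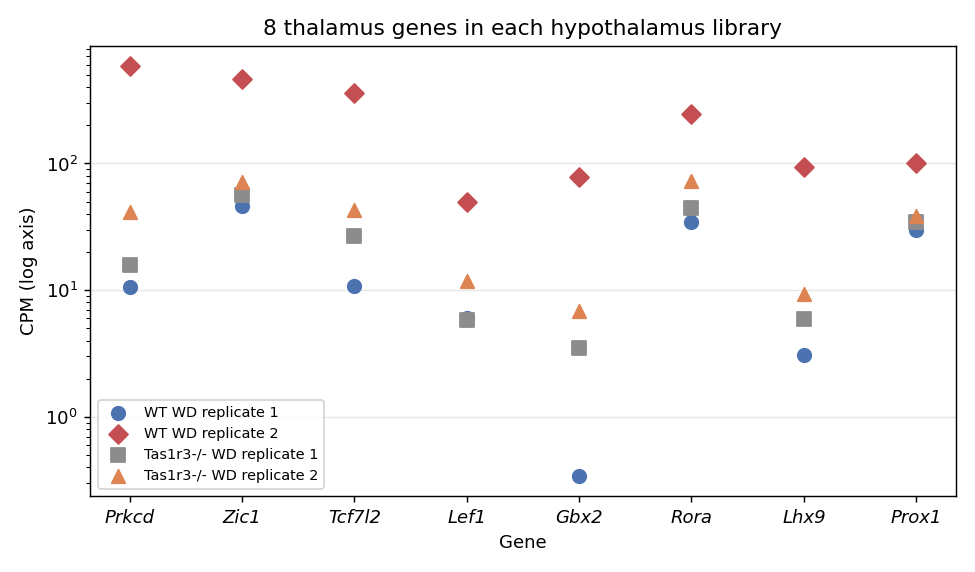
CPM of each of the 8 thalamus genes (vertical log axis) in each of the 4 libraries, 1 point per library. The red diamonds of WT WD replicate 2 lie above the other 3 points for every gene, from 49.6 CPM (*Lef1*) to 583 CPM (*Prkcd*), and *Gbx2* in WT WD replicate 1 lies lowest at 0.343 CPM.

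Together the 8 genes summed to 142 CPM in WT WD replicate 1, 1976 in WT WD replicate 2, 194 in KO WD replicate 1 and 295 in KO WD replicate 2. The median log2 CPM difference between the library labelled WT WD replicate 2 and the mean of the other 3 was 3.47 over the 8 genes. That library was at least 2-fold above the highest of the other 3 for 8 of 8 genes, where 2.85% of all genes tested were, and this count follows from the choice of the genes. In these bulk libraries, fewer cells of a type and less RNA per cell cannot be told apart.

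The remaining 3 libraries were not alike either. KO WD replicate 2 exceeded KO WD replicate 1 for 8 of 8 genes, where 50.2% of all genes did, with a median log2 CPM difference of 0.68. Both KO WD libraries exceeded WT WD replicate 1 for 7 of 8 genes, against 37.6% of all genes. Thus 7 genes, all but *Lef1*, had the order WT WD replicate 1, KO WD replicate 1, KO WD replicate 2 and WT WD replicate 2 from low to high, an order held by 6.97% of all genes tested. Its top place follows from the choice of the genes. Of the 4849 genes highest in WT WD replicate 2, 1000 had this order. The range within the remaining 3 libraries was 1.28-fold for *Prox1*, 1.54-fold for *Zic1*, 3.90-fold for *Prkcd* and 3.94-fold for *Tcf7l2*. With 1 value per library these steps have no replicate error of their own.

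Of the 44 transcripts of the 8 genes, 40 had their highest estimated count in the library labelled WT WD replicate 2. *Gbx2* had 1 listed transcript, *Prkcd*, *Zic1* and *Prox1* had 2 each, *Rora* and *Lhx9* had 3 each, *Lef1* had 6 and *Tcf7l2* had 25. One *Tcf7l2* transcript held 57.3% of the gene's counts in WT WD replicate 2, with 1251 estimated counts, but 0.262% in WT WD replicate 1, with 0.166. It had 56.7 and 89.9 estimated counts in KO WD. For *Rora*, 2 transcripts shared the counts almost equally in WT WD replicate 2, at 747 and 743, whereas in WT WD replicate 1 they had 150 and 51.9. The 4 transcripts that were not highest there belonged to *Lef1* and *Tcf7l2*, 1 of them a *Lef1* transcript with 9.80 and 5.28 estimated counts in WT WD and 18.7 and 12.4 in KO WD. How reads were divided between overlapping transcripts is an estimate, and gene sums do not depend on it.

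Other thalamus genes were also high in the library labelled WT WD replicate 2. This list and those that follow were chosen with earlier results of these data known, so their counts are a description. Of 26 further genes, all tested, 26 were highest in the library labelled WT WD replicate 2, as 33.8% of all genes were, and 23 were at least 2-fold above all other libraries there, with a median log2 CPM difference from the other 3 of 2.33. *Shox2*, a homeobox gene of thalamic neurons, had 0.514 and 160 CPM in WT WD and 1.28 and 14.0 in KO WD. *Tnnt1*, a troponin gene with thalamic expression, was listed at 0 in WT WD replicate 1 and had 54.7 CPM in WT WD replicate 2, against 0.160 and 9.98 in KO WD. *Slc17a6*, the glutamate transporter of subcortical excitatory neurons, had 208 and 528 CPM in WT WD and 217 and 231 in KO WD, and hypothalamic neurons use it too. The 26 genes summed to 1484 and 6006 CPM in WT WD and 1519 and 1940 in KO WD, and both KO WD libraries exceeded WT WD replicate 1 for 19 of them.

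The habenula borders the thalamus and shares *Tcf7l2*, and most of its listed genes were also high in the library labelled WT WD replicate 2. *Gpr151*, an orphan receptor of habenular neurons, had 1.71 and 105 CPM in WT WD and 1.92 and 1.58 in KO WD. *Pou4f1*, its defining transcription factor, had 0.343 and 45.2 CPM in WT WD and 0.160 and 0.175 in KO WD, and it was not among the genes tested with all 4 libraries. Of the 7 habenula genes tested, 6 were at least 2-fold above all others in the library labelled WT WD replicate 2, and *Tac1*, used by other regions also, was lower there at 18.4 CPM against 58.3 to 68.4. Both KO WD libraries exceeded WT WD replicate 1 for 2 of the 7.

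Most genes listed for the inhibitory reticular thalamus and the zona incerta were low in that library. *Dlx1*, a regulator of forebrain inhibitory neurons, had 49.2 and 2.30 CPM in WT WD and 38.6 and 41.1 in KO WD. Of 13 such genes, 9 were in the library labelled WT WD replicate 2 at no more than 1/2 of the lowest of the others, where 3.97% of all genes tested were, and hypothalamic neurons use several of them, *Dlx1* included. The other 4 were not low, with 6.25 CPM there against 2.10 to 3.04 for *Esrrb*, 15.9 against 7.21 to 9.98 for *Pax6*, 15.8 against 9.77 to 16.6 for *Pvalb* and 7.40 against 4.97 to 8.33 for *Spp1*.

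Hypothalamic genes were low in that library. *Pmch*, the precursor of melanin-concentrating hormone, had 767 and 6.58 CPM in WT WD and 373 and 558 in KO WD. *Avp*, which encodes vasopressin, had 335 and 2.30 CPM in WT WD and 196 and 203 in KO WD, and the homeobox gene *Otp* had 53.8 and 0.493 against 39.4 and 35.7. Of 24 hypothalamus genes tested, 23 were at no more than 1/2 of the lowest of the other libraries. *Nkx2-1*, with 0 counts there, was at least 69.2-fold lower than the mean of the other 3, and *Nr5a1*, a marker of the ventromedial nucleus, at least 44.2-fold lower, both against a floor of 3 counts per library. *Tac2*, which the habenula also expresses, was the exception with 63.0 CPM against 15.4 to 22.1. The 25 genes of the list summed to 2293 and 132 CPM in WT WD and 1666 and 1612 in KO WD.

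**Figure D2:**
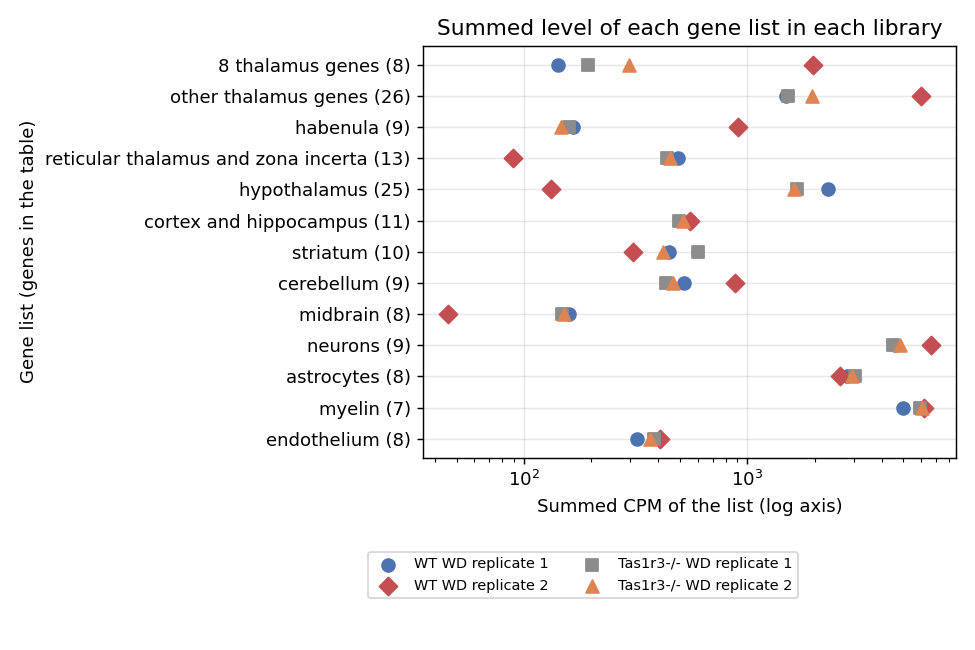
Summed CPM of each gene list (horizontal log axis) in each library, with the number of genes in the table in brackets. WT WD replicate 2 (red diamonds) lies highest for the 8 thalamus genes at 1976, other thalamus genes at 6006, habenula at 908 and cerebellum at 878. It lies lowest for hypothalamus at 132, reticular thalamus and zona incerta at 89.6, midbrain at 45.5 and striatum at 307. Myelin and endothelium sums lie within 1.5-fold of each other in all 4 libraries.

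Markers of other cell types showed where that library was and was not different. Astrocyte genes summed to 2606 CPM there and 2791 to 3021 in the others, myelin genes to 6188 against 4987 to 6057, and neuronal genes to 6663 against 4475 to 4844. Among lists of other regions, midbrain genes summed to 45.5 CPM there against 147 to 159, and striatum genes to 307 against 418 to 603. Cerebellum genes summed to 878 CPM against 433 to 523, with *Pcp4* at 496 against 126 to 140. Cortex and hippocampus genes summed to 553 CPM against 496 to 555. *Ttr*, the transthyretin gene of the choroid plexus, had 677 CPM in the library labelled WT WD replicate 2 and 0.700 to 4.29 in the others. Of the 4 choroid plexus genes tested, 2 were at least 2-fold above all others there, *Ttr* and *Otx2*, while *Clic6* had 33.2 CPM against 30.8 to 40.8 and *Kl* 12.0 against 5.60 to 12.2. The list genes not tested with all libraries were low in counts but also highest there. *Folr1* had 9.04 CPM against 0.175 to 1.60 and *Kcnj13* 10.4 against 0.175 to 0.641. *Slc4a5* had 5.43 CPM against 0.514 to 0.700 and *Aqp1* 3.29 against 0.343 to 0.641. *Slc17a7*, the glutamate transporter of cortical and some thalamic neurons, had 265 CPM there and 2.40 to 11.9 in the others. The 4 hemoglobin genes and *Alas2*, chosen after their values were seen, summed to 1955 CPM there and 380 to 767 in the others. Pituitary genes were high in a different library, with 1447 CPM in KO WD replicate 1 and at most 14.6 in the rest. The part of these markers in the levels of the 8 genes was not tested.

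Relatives of the 8 genes did not all follow them. All 5 *Zic* genes were at least 2-fold above all others in the library labelled WT WD replicate 2, from 18.2 CPM for *Zic5* to 197 for *Zic2* besides *Zic1*. Of the nuclear receptors, *Rorb* had 70.4 CPM there and 22.8 to 29.6 elsewhere. In the TCF/LEF family *Tcf7l1* had 7.23 CPM there and 6.41 to 8.23 elsewhere.

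The kinase and homeobox families were divided. Among protein kinase C genes, *Prkch* and *Prkcq* were, like *Prkcd*, at least 2-fold above all others in the library labelled WT WD replicate 2, whereas *Prkca* had 45.9 CPM there and 88.4 to 94.8 elsewhere. Among LIM homeobox genes *Lhx2* had 33.0 CPM there against 6.48 to 8.65. *Lhx1*, *Lhx5* and *Lhx6*, which hypothalamic neurons use, had 2.63, 1.64 and 0.493 CPM there and at least 11.7, 15.1 and 5.66 elsewhere. Of 15 Wnt pathway targets tested, which report activity of the pathway in many tissues, only *Nkd1* was at least 2-fold above all others, at 68.2 CPM against 18.1 to 19.3, and *Axin2* had 72.7 CPM against 34.5 to 40.8.

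By distance between log2 CPM profiles over the 4 libraries, each centred on its mean, the genes nearest to the average of the 8 were *Rab37* (0.27), *Vav3* (0.35), *Plekhg1* (0.36), *Synpo2* (0.43) and *Cck* (0.52). Nearest to *Prkcd* alone were *Ramp3* (0.49), *Gabrd* (0.53), *Grid2ip* (0.71), *Ptpn3* (1.01) and *Synpo2* (1.11). *Gabrd*, the delta subunit of extrasynaptic GABA-A receptors, is prominent in thalamic relay neurons and had 1.37 and 89.1 CPM in WT WD and 3.53 and 7.53 in KO WD. A profile over 4 libraries is set mostly by the library that stands apart, so the likeness is a description.

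The contrast of interest to the study is KO WD against WT WD. With all 4 libraries the 8 genes were lower in KO WD than in WT WD, with a median log2 fold change of −2.20 over the 8 where the median over all genes was −0.01. The values ran from −0.84 for *Prox1* (SE 0.57) to −3.38 for *Prkcd* (SE 1.71). Averages hid the split, since WT WD *Prkcd* was 297 ± 405 CPM (SD, n = 2 libraries) and KO WD *Prkcd* was 28.6 ± 18.2 CPM (SD, n = 2 libraries). In the quasi-likelihood fit of edgeR, 0 of 8 genes passed a Benjamini-Hochberg adjusted p of 0.05 and 1.5-fold in either direction, with adjusted p from 0.756 to 0.765 and unadjusted p from 0.106 to 0.220. Of all genes 0% passed it, and 772 (5.38%) had an unadjusted p under 0.05. With limma-trend 0 genes were called. DESeq2 called 8 genes, none of them among the 8 described here (DESeq2 adjusted p 0.9998 for each). A 1.5-fold lower estimate, with no test, was seen for 8 of 8 genes (6.42% of all genes), a count that follows from choosing genes high in a WT WD library. Both KO WD libraries lay between the 2 WT WD libraries for 7 genes, and for *Lef1* KO WD replicate 1 was just below WT WD replicate 1, so the groups overlapped for all 8. KO WD lay wholly above WT WD for 20.6% of all genes and wholly below it for 18.9%.

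The median was nearly the same with RLE size factors (−2.21), total counts (−2.19), no filter on low counts (−2.20) and DESeq2 (−2.21). Some other fits gave smaller estimates. With limma-trend the median over the 8 genes was −0.97, and with the replicate number as a block in edgeR it was −1.22.

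Without the library labelled WT WD replicate 2, the direction turned. The log2 fold change, KO WD minus WT WD replicate 1, was 1.41 (SE 0.49) for *Prkcd*, 1.67 (SE 0.29) for *Tcf7l2*, 3.83 (SE 0.88) for *Gbx2* and 1.29 (SE 0.47) for *Lhx9*. It was 0.47 for *Zic1*, 0.53 for *Lef1*, 0.75 for *Rora* and 0.29 for *Prox1*, and the median over the 8 was 1.02. The sign went from lower to higher for 8 of 8 genes (14.3% of all genes), and as the lower value with 4 libraries follows from the choice of the genes, nothing is read from this count.

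None of the 8 passed the threshold in that fit. The smallest adjusted p by edgeR was 0.0709, for *Tcf7l2*, and the largest was 0.653, for *Lef1*, where 0.217% of all genes passed in either direction and 0.183% as higher in KO WD. The 8 genes were chosen together on these data and are not 8 independent results, so no count of small unadjusted p among them is read. For *Gbx2*, the ratio of both KO WD libraries to WT WD replicate 1 was 14.9 with a 95% exact interval of 3.94 to 125, since the WT library had 2 counts. This interval covers counting error only. The lone WT WD library was assumed to vary like the KO WD libraries, so the fit compares that library with KO WD and not the genotypes.

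Without WT WD replicate 1, in contrast, the 8 genes were all called lower in KO WD, with log2 fold changes from −1.47 for *Prox1* (SE 0.12) to −4.36 for *Prkcd* (SE 0.34). Of all genes 6.75% were called lower in KO WD in that fit. This comparison used the library and the difference on which the genes were chosen, and nothing is read from it.

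**Figure D3:**
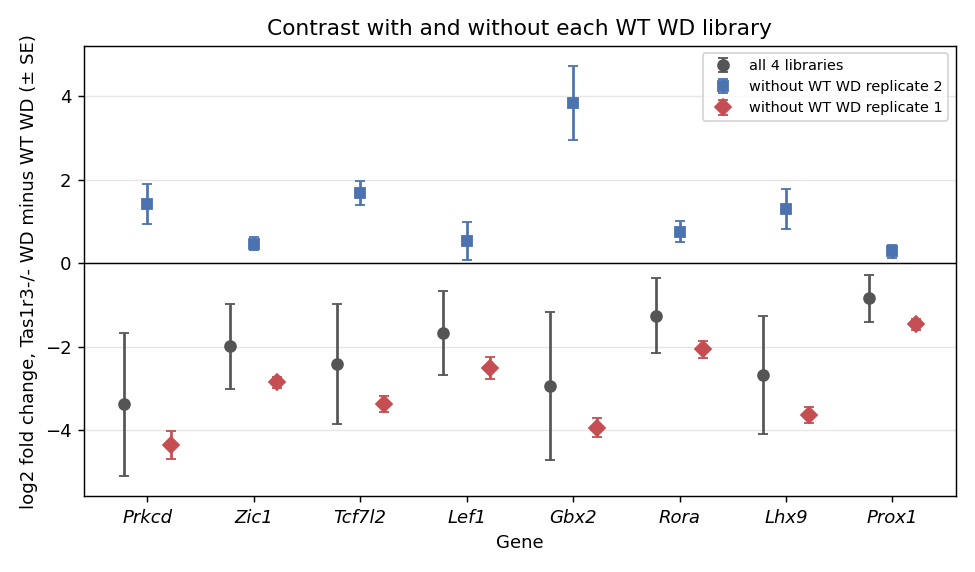
Log2 fold change, KO WD minus WT WD (vertical axis, error bars are the SE of the edgeR fit), of each thalamus gene with all 4 libraries (grey circles), without WT WD replicate 2 (blue squares) and without WT WD replicate 1 (red diamonds). All grey and red points lie below 0 and all blue points above 0, with medians of −2.20, −3.11 and 1.02.

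Standard errors depended on which libraries were in the fit. The median SE of the 8 log2 fold changes was 1.22 with 4 libraries, against 0.21 over all genes, and 0.37 without the library labelled WT WD replicate 2. Without WT WD replicate 1 the SEs were small too, from 0.12 for *Prox1* to 0.34 for *Prkcd*. A lone WT WD library has no spread of its own, so in both fits the spread comes from the KO WD pair alone. The smaller SEs thus follow from the design. The common biological coefficient of variation was 0.227 with 4 libraries. It was 0.0911 without either WT WD library, from the KO WD pair, and about 0.319 without either KO WD library, from the WT WD pair.

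Among the 26 further thalamus genes, 23 also changed sign, against 3903 of the 14344 genes tested. Of all genes, 7313 had a negative log2 fold change with 4 libraries. Without the library labelled WT WD replicate 2, 7221 had a positive one. As the 26 genes were listed with earlier results of these data known, nothing is read from their sign changes. Of these 26, 25 had a negative log2 fold change with 4 libraries (median −1.50) and 24 a positive one without the library labelled WT WD replicate 2 (median 0.45), and 0 of the 26 were called in either fit. In the second of these fits 10 of 26 had an unadjusted p under 0.05 in the higher direction, against the 8.32% of all genes. Hypothalamus genes had a median of 0.49 in the first fit and −0.41 in the second. Of the 24, 12 changed sign, against the 3903 of 14344 over all genes. In the second fit 11 of 24 had an unadjusted p under 0.05 in the lower direction, against 5.36% of all genes. Both KO WD libraries were below WT WD replicate 1 for 16 of these 24, against 37.5% of all genes. *Avp* (log2 fold change −0.75, SE 0.10, adjusted p = 0.034) and *Fezf1* (−1.12, SE 0.17, adjusted p = 0.036) were called lower and *Lhx6* (1.96, SE 0.30, adjusted p = 0.0404) higher by edgeR without that library.

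Over all genes the median log2 fold change was −0.0057 with 4 libraries and 0.0023 without the library labelled WT WD replicate 2. With all 4 libraries edgeR called 0 genes, without WT WD replicate 1 it called 2122 and without WT WD replicate 2 it called 32. The smallest p of the 32 belonged to *Sgk1*, a glucocorticoid-induced kinase, which had 24.4 CPM in WT WD replicate 1, 107 in WT WD replicate 2 and 160 and 192 in KO WD (log2 fold change 2.85, SE 0.16, adjusted p = 1.4e-04).

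**Figure D4:**
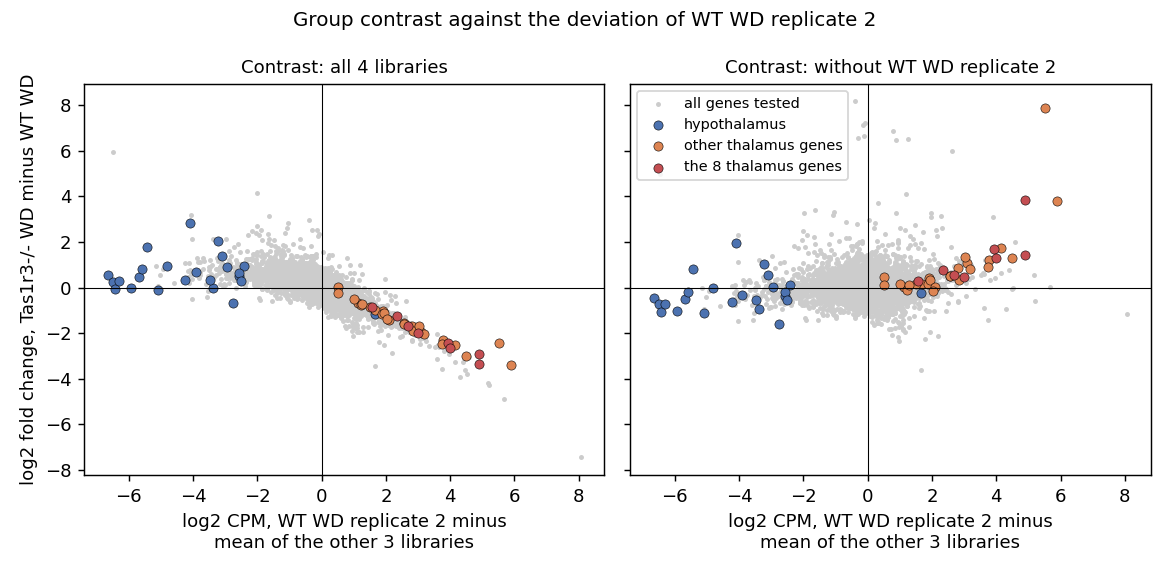
For each gene tested, the log2 fold change KO WD minus WT WD (vertical axis) against the log2 CPM difference of WT WD replicate 2 from the mean of the other 3 libraries (horizontal axis), with all 4 libraries on the left and without WT WD replicate 2 on the right. The axes share libraries; on the left the 8 thalamus genes (red) lie at lower right, and on the right they lie above 0, while most hypothalamus genes (blue) lie at the left edge of both panels.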

How the data were processed

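Hypothalamic RNA of male mice on WD was sequenced in 2 WT and 2 *Tas1r3*-/- libraries. The submitters' processing notes name STAR, Partek and mm39. The authors aligned the reads and deposited an estimated count per RefSeq transcript, without normalization. The design assumed counts per gene, so transcripts were summed by gene symbol (names alone from a RefSeq gene table) and rounded. Of 30930 transcripts, 30891 were named, and the 39 others (0.347% to 2.49% of counts) were left out. A count of 0 allows 3 counts, or 0.485 to 0.524 CPM, for counting error only.

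The 8 genes and all lists were chosen with earlier results of these data known. Genes named are the 8, list members, the 5 nearest profiles, the 5 largest gaps on each side and up to 10 called genes. CPM used TMM factors (0.988 to 1.01) and log2 CPM a prior count of 2. edgeR 4.0.16 in R 4.3.3 (quasi-likelihood test, filterByExpr, Benjamini-Hochberg, adjusted p under 0.05 and 1.5-fold) was tested on simulated data. DESeq2 1.42.0, the tool the study names, limma-trend (limma 3.58.1), RLE size factors, total counts, other filters, adjusted p alone, a replicate block and leaving out each library were alternatives. P-values measure the spread between these libraries, which may be technical. With 2 libraries per group, the deviations of the replicate 2 libraries mirror those of the replicate 1 libraries. Both pairs thus give the same single r (0.082), which cannot decide whether same-numbered libraries pair. Some list genes are not reported here.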

Additional observations from a re-analysis of the deposited data

How the results depend on the processing

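With 4 libraries the count of calls was 0 by edgeR and stayed 0 with every alternative scaling, filter and test except DESeq2. DESeq2 called 8 genes, none of them among the 8 thalamus genes. Leaving out either KO WD library gave 0 calls, leaving out WT WD replicate 2 gave 32, and leaving out the other WT WD library gave 2122. The 32 calls became 11 with DESeq2, 69 with limma-trend, 99 with no filter on low counts and 61 with at least 10 counts in every library. The median log2 fold change of the 8 genes was −2.21 to −0.97 over the settings with 4 libraries, and leaving out WT WD replicate 2 reversed it to 1.02. All 8 genes reversed in that fit, *Prkcd* to 1.41, *Zic1* to 0.47, *Tcf7l2* to 1.67, *Lef1* to 0.53, *Gbx2* to 3.83, *Rora* to 0.75, *Lhx9* to 1.29 and *Prox1* to 0.29. With the other WT WD library left out instead, the median of the 8 was −3.11 and each was called lower, at −4.36, −2.85, −3.37, −2.51, −3.93, −2.06, −3.63 and −1.47 in the same order. Whether replicate numbers pair the libraries could not be decided with 2 libraries per group. The fit with the replicate block gave 0 calls and a median of −1.22. Leaving out predicted transcripts changed nothing, as every listed transcript is a curated one. The median log2 CPM difference of WT WD replicate 2 from the others was 3.13 to 3.76 over its settings, and no setting changed the sign for any of the 8 genes. *Gbx2* had 2 counts in WT WD replicate 1, so its ratio to that library has a wide counting interval.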
